A study of Rattus norvegicus with 84 samples.

Results

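The 42 genes described here encode the core of autophagy and of the mTOR pathway that controls it, and they were chosen by name, from the kinase that starts the process to the receptors that bring cargo to it. All 42 were present in each of the 3 deposited tables, which hold 15553 genes for CA1, 15706 for CA3 and 15374 for the dentate gyrus (DG), and all passed the filter on low values. RNA was sequenced from the 3 hippocampal subregions of 28 male rats of the inbred F344 strain, a common one in research on ageing. Of these, 16 were 12 months old and 12 were 5 months old. Each rat gave 1 library per subregion, 84 libraries in all, from a single hemisphere. The labels name no treatment or genotype that separates the rats, so age is the only contrast. Values are normalized counts, the reads of a gene divided by 1 size factor per library. A change is the difference in the mean of log2(normalized count + 1), 12 months minus 5 months, given with its standard error.

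Autophagy encloses part of the cytoplasm in a double membrane, the autophagosome, and delivers it to the lysosome for breakdown. The ULK1 complex starts the process, the class III phosphatidylinositol 3-kinase complex marks the membrane, lipid transfer proteins and a scramblase enlarge it, and an ubiquitin-like conjugation system attaches LC3 and GABARAP proteins to it. mTOR complex 1 (mTORC1) holds the ULK1 complex and the transcription factor TFEB back when nutrients are plentiful, and AMPK, which senses low energy, acts the other way. In neurons basal autophagy clears damaged proteins and organelles from cells that do not divide, and loss of it causes neurodegeneration in mice.

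Each subregion's own neuron markers were highest in that subregion in 28 of 28 rats, for granule cells in the DG and for pyramidal cells in CA1 and CA3. Libraries held 14.4 to 23.4 M reads. Transcripts of 13 mitochondrially encoded genes took a median of 11.2% of reads in CA1 at 12 months, against 7.96% at 5 months. For CA3 the median share was 8.51% at 12 months and 7.76% at 5 months, and for the DG it was 7.57% at 12 months and 6.60% at 5 months. The animal numbers fall into 2 runs, with 10 rats of 12 months and 6 of 5 months in the first and 6 of each age in the second. The labels do not call these runs batches. In bulk tissue, fewer cells of a type and less RNA per cell cannot be told apart.

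At 12 months 28 of the 42 genes differed from 5 months in at least 1 subregion and 14 in none, where 46.9% of all genes were called in none. No member was called in opposite directions in different subregions. For how many of all genes that held was not counted, so it is not shown to be particular to the members. In CA1, 7 genes were higher and 11 lower at 12 months, 42.9% of the members, where 25.2% of all tested genes were called (12.4% higher and 12.8% lower). In CA3, 8 were higher and 7 lower (35.7%), where the share over all genes was 21.7% (10.9% and 10.8%). In the DG, 10 were higher and 11 lower (50%), where it was 37.1% (18.5% and 18.5%). On the average of a rat's 3 subregions, 12 genes were higher and 15 lower (64.3%), where 50% of genes were called (25.4% and 24.6%). All calls are from limma at an adjusted p under 0.05.

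These shares lie above those of all genes, but the members are well expressed and their errors small, with a median standard error of 0.06 against 0.09 over all genes for CA1 and the DG alike. Among genes with a mean at least that of the lowest member, 28.6% were called for CA1, 25.1% for CA3 and 41.3% for the DG. The changes themselves were near those of other genes in size. The median absolute change of the members was 0.14 for CA1, 0.08 for CA3 and 0.18 for the DG, against 0.15, 0.11 and 0.17 over all genes. The median signed change of the members was within 0.02 of 0 in each subregion, as members moved in both directions.

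Within the first run alone, limma called 0 members of CA1 (10 at an unadjusted p under 0.05), 3 for CA3 and 0 for the DG (11 at an unadjusted p under 0.05), where 3.19%, 4.83% and 0.172% of all genes were called. The second run alone gave 20, 7 and 24 members, with 33.8%, 16.5% and 46.9% of all genes. Over all 42 members, 33 had the same sign in both runs in each subregion (78.6%), where 68.4% of all genes did so for CA1, 67.2% for CA3 and 69.1% for the DG. The members called over all rats had the same sign in both runs in each subregion, but calling on the pooled rats largely fixes that, and it held for 97.9% to 99.6% of all called genes too. With the mitochondrial share as a covariate, 1 member was higher (Rictor) and 1 lower (Tfeb) in CA1, 6 were higher and 6 lower in CA3, and 10 were higher and 13 lower in the DG. Of all genes, the same fit called 34.8% for the DG, 13.8% for CA3 and 4.95% for CA1. The part of the mitochondrial share in the CA1 result was not tested further. A further fit left out the 3 libraries of each subregion that lie farthest from their age group. CA1 then had 6 members higher and 13 lower, CA3 had 5 of each, and the DG had 11 higher and 10 lower. Of all genes, that fit called 29.6% for CA1, 16.2% for CA3 and 42.5% for the DG.

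**Figure D1:**
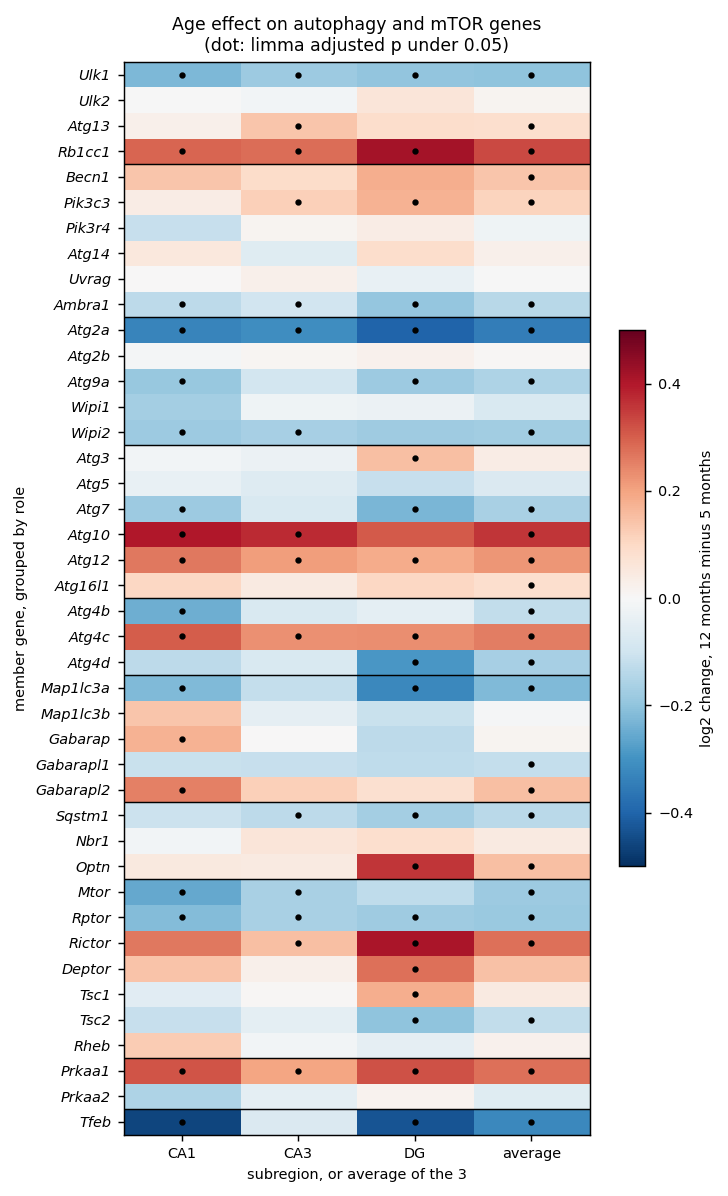
Change of each member with age as a heat map. Rows are the 42 genes grouped by role, columns are the 3 subregions and their average, colour is the log2 change (12 months minus 5 months) and a dot marks an adjusted p under 0.05. Rows marked in all 3 subregions are Rb1cc1, Atg12, Atg4c and Prkaa1, all higher, and Ulk1, Ambra1, Atg2a and Rptor, all lower.

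Of the 42 genes, 4 were higher at 12 months in all 3 subregions and 4 were lower in all 3, where 4.24% and 4.45% of all genes were called so. The higher ones were Rb1cc1, Atg12, Atg4c and Prkaa1. The lower ones were Ulk1, Ambra1, Atg2a and Rptor. A further 3 were higher and 7 lower in 2 subregions, and 7 were higher and 3 lower in 1. The other 14 were called in no subregion, a result shared by 46.9% of all genes.

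The promoters of 4 of these genes are printed because the data call them with age in every subregion, 2 in each direction, and that of Atg3 because it holds the motif searched. Each is the 300-base RefSeq window (GRCr8 build) from 250 bases before to 50 after the gene's start, read 5′ to 3′ along the gene. Capitals mark CACGTG, an E-box and the core of the sequence that TFEB binds. The windows are Atg12 at chr18:41648969-41649268, minus strand; Prkaa1 at chr2:55967525-55967824, plus strand; Ulk1 at chr12:51511242-51511541, plus strand; Atg2a at chr1:212971572-212971871, plus strand; and Atg3 at chr11:69159231-69159530, minus strand.
Atg12: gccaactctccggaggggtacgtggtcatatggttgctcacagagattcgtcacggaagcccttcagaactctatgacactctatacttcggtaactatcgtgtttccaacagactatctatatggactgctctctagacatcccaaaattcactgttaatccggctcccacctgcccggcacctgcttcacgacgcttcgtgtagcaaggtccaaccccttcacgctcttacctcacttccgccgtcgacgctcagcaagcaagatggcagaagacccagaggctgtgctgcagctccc
Prkaa1: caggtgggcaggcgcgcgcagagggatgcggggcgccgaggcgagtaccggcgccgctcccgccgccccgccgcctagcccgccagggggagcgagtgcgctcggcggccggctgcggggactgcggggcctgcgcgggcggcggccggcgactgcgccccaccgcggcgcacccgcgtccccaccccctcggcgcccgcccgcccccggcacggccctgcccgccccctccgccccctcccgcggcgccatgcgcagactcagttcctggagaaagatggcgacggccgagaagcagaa
Ulk1: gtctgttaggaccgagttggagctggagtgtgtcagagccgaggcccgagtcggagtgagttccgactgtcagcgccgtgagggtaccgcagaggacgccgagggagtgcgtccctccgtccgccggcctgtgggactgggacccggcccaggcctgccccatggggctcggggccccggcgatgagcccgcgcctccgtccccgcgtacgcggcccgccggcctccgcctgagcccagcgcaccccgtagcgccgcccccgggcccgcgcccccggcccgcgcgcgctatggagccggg
Atg2a: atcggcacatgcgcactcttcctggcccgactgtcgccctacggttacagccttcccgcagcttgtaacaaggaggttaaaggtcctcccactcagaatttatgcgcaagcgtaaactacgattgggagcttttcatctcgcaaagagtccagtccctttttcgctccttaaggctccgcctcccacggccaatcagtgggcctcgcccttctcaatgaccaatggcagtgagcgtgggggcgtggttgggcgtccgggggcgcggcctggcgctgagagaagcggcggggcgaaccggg
Atg3: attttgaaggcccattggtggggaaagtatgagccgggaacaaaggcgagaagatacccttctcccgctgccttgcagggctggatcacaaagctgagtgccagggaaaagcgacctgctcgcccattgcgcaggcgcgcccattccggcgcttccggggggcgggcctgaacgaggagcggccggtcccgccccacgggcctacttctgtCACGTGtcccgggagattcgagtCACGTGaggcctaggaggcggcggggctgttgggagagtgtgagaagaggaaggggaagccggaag

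The 4 called genes hold 0 copies of CACGTG in these windows and Atg3 holds 2. The motif reads the same on both strands, so 1 search covers both. A promoter was found for 36 of the 42 members, and 4 of these (11.1%) held the motif, namely Atg14, Atg3, Atg5 and Rheb. It was in 9.23% of the promoters of tested genes and in 6.65% of all promoters in the table. Split by the call on the average of subregions, it was in 0 of 10 promoters of higher members, 0 of 12 of lower members and 4 of 14 of members with no call. The same split over all tested genes gave 9.07%, 9.39% and 9.22%. With so few promoters, 0 in a group does not show that the motif is rarer there. The promoters differ widely in base composition, with 81.3% G or C in Prkaa1 and 53.7% in Atg12, both higher at 12 months. The median was 61.5% in higher members, 60.3% in lower members and 61.3% over tested genes.

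The ULK1 complex split in opposite directions with age. Ulk1, the kinase that starts autophagy, was lower at 12 months in all 3 subregions, and Rb1cc1, the scaffold also called FIP200, was higher in all 3. Ulk1 had 1301 to 1872 normalized counts (median 1541) at 12 months, against 1594 to 2137 (median 1774) at 5 months in CA1. CA3 gave 1384 to 1781 (median 1618) at 12 months, against 1626 to 2046 (median 1832) at 5 months, and the DG 1554 to 2032 (median 1792) at 12 months, against 1733 to 2403 (median 2069.6) at 5 months. The ages overlapped, but 15 of 16 rats at 12 months lay below the 5-month median for CA1, 16 for CA3 and 16 for the DG. The log2 change was -0.22 ± 0.06 (adjusted p = 0.00596) for CA1, -0.18 ± 0.05 (adjusted p = 0.00624) for CA3 and -0.20 ± 0.05 (adjusted p = 0.00395) for the DG.

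Rb1cc1 had 718 to 1533 normalized counts (median 1174) at 12 months, against 669 to 1083 (median 945) at 5 months in CA1. CA3 gave 1150.5 to 1529.5 (median 1330.1) at 12 months, against 847 to 1359 (median 1101) at 5 months, and the DG 717 to 1503 (median 1085) at 12 months, against 688 to 1025 (median 796) at 5 months. In CA1 and the DG the 12-month rats spread wider than the 5-month rats, with 9 and 10 of 16 above the whole 5-month range. The change was 0.29 ± 0.10 (adjusted p = 0.0308) for CA1, 0.28 ± 0.05 (adjusted p = 0.000843) for CA3 and 0.42 ± 0.09 (adjusted p = 0.00118) for the DG. The CA1 call was lost without 12-month replicate 12 or 14 or 5-month replicate 1, 2 or 8 (adjusted p 0.0508 to 0.0676). Atg13, the adaptor that joins the kinase to the scaffold, was higher in CA3 (0.14 ± 0.04, adjusted p = 0.0264) and called in neither other subregion. The CA3 call was lost without 5-month replicate 2 or 4 (adjusted p 0.0528 to 0.0535). Ulk2, the second kinase, changed by -0.0034 for CA1, -0.01 for CA3 and 0.06 for the DG, and the lowest adjusted p of these was 0.261.

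**Figure D2:**
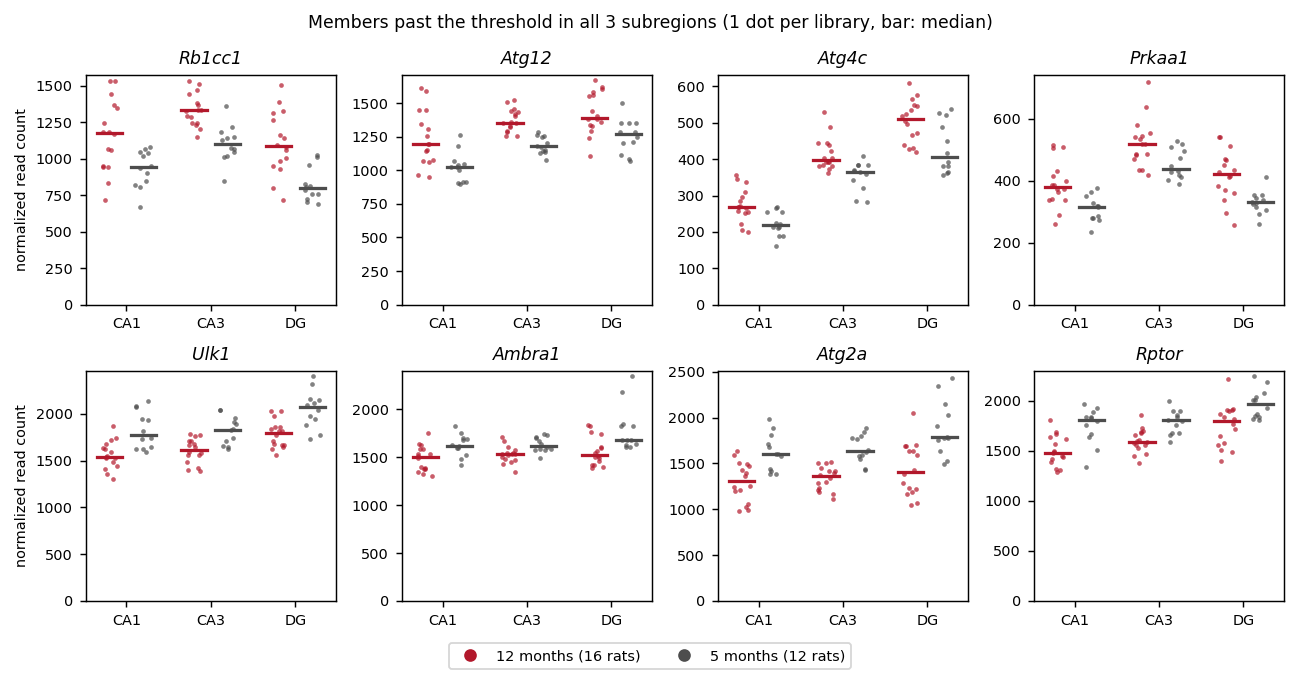
Normalized read counts of the 8 genes called in all 3 subregions. Each dot is 1 library, with 16 rats of 12 months at the left and 12 of 5 months at the right of each subregion, a bar marks the median and the vertical axis starts at 0. The medians at 12 months stand above those at 5 months in the upper row and below them in the lower row, and the ages overlap in each panel.

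In the class III phosphatidylinositol 3-kinase complex the regulator moved one way and the catalytic subunit the other. Ambra1, which binds Beclin 1 and ties the complex to ULK1, was lower at 12 months in all 3 subregions, by small amounts. Its counts were 1387 to 1839.6 (median 1524) at 12 months, against 1609 to 2347 (median 1680.0) at 5 months in the DG. There 12 of 16 older rats lay below the whole 5-month range and 4 above its median, so the 12-month group was spread unevenly. The change was -0.13 ± 0.05 (adjusted p = 0.0453) for CA1, -0.10 ± 0.03 (adjusted p = 0.0394) for CA3 and -0.19 ± 0.06 (adjusted p = 0.0127) for the DG. The DG call held in 28 of 28 fits that each left out 1 rat. The CA1 call was lost in 15 of them, without 12-month replicate 3, 9, 10, 11, 12, 14, 15 or 16 or 5-month replicate 1, 2, 3, 5, 8, 11 or 12 (adjusted p 0.0507 to 0.0877). The CA3 call was lost in 12, without 12-month replicate 6, 7, 11, 12, 13 or 14 or 5-month replicate 1, 2, 4, 7, 8 or 12 (adjusted p 0.0538 to 0.0743).

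Pik3c3, the lipid kinase VPS34, was higher in CA3 and the DG. CA3 gave 706 to 849.9 (median 753) at 12 months, against 588 to 781 (median 696) at 5 months, and the DG 494 to 638 (median 604) at 12 months, against 424 to 627 (median 499) at 5 months. All 16 older rats were above the 5-month median in CA3 and 15 of 16 in the DG. The change was 0.12 ± 0.04 (adjusted p = 0.0373) in CA3 and 0.17 ± 0.06 (adjusted p = 0.0164) in the DG, with 0.04 in CA1 (adjusted p = 0.679). The CA3 call was lost in 9 fits, without 12-month replicate 2, 6 or 12 or 5-month replicate 1, 2, 6, 7, 10 or 12 (adjusted p 0.0511 to 0.077). Becn1, which encodes Beclin 1, passed the threshold on the average only (0.14 ± 0.05, adjusted p = 0.018). That value was -0.02 in the first run against 0.31 in the second, so it rests on the second run. Pik3r4 (VPS15, the pseudokinase partner), Atg14 (which directs the complex to autophagosomes) and Uvrag (its endosomal counterpart) were called in no subregion. Their changes ran from -0.12 for Pik3r4 in CA1 to 0.09 for Atg14 in the DG.

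Among the 5 genes that enlarge the membrane, the calls were 3 lower in CA1 (60%, where 25.2% of all genes were called), 2 lower in CA3 (40%, against 21.7%) and 2 lower in the DG (40%, near its 37.1%). None was called higher. Atg2a, a bridge protein that carries lipid from the endoplasmic reticulum to the growing membrane, had the largest decrease of the 5 on the average. It had 978 to 1630.3 normalized counts (median 1308) at 12 months, against 1379 to 1989 (median 1603) at 5 months in CA1. CA3 gave 1113 to 1512 (median 1361) at 12 months, against 1425 to 1885 (median 1635) at 5 months, and the DG 1051 to 2054 (median 1403) at 12 months, against 1491 to 2436 (median 1784) at 5 months. In CA3 12 of 16 older rats lay below the whole 5-month range, and 9 did so in each of CA1 and the DG. The change was -0.33 ± 0.08 (adjusted p = 0.00483) for CA1, -0.31 ± 0.05 (adjusted p = 0.000261) for CA3 and -0.40 ± 0.09 (adjusted p = 0.00178) for the DG. Its paralogue Atg2b, which does the same work, was called nowhere, with changes of -0.01, 0.01 and 0.02 in CA1, CA3 and the DG and a 95% interval on the average of -0.04 to 0.05.

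Atg9a, the scramblase that spreads lipid between the 2 leaflets of the membrane, was lower in CA1 (-0.19 ± 0.05, adjusted p = 0.00993) and the DG (-0.18 ± 0.04, adjusted p = 0.00258). Its CA1 counts were 2535 to 3501 (median 3196) at 12 months, against 3132 to 4085 (median 3531) at 5 months, and all 16 older rats lay below the 5-month median. In CA3 it changed by -0.09 (adjusted p = 0.118). Wipi2, which reads the phosphoinositide mark and recruits Atg16l1, was lower in CA1 (-0.18 ± 0.05, adjusted p = 0.0089) and CA3 (-0.17 ± 0.05, adjusted p = 0.0207). In both subregions all 16 older rats lay below the 5-month median. Its change in the DG was of the same size, -0.18, with an adjusted p of 0.0685. The related Wipi1 changed by -0.17 in CA1 (adjusted p = 0.0534) and was called in no subregion.

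The conjugation enzymes also divided. Atg12, the ubiquitin-like protein that is joined to Atg5, was higher in all 3 subregions, and Atg10, the E2-like enzyme that makes this join, was higher in CA1 and CA3. Atg7, the E1-like enzyme that activates both Atg12 and the LC3 family, was lower in CA1 and the DG. Atg12 had 954 to 1611 normalized counts (median 1197) at 12 months, against 899 to 1266 (median 1024) at 5 months in CA1. CA3 gave 1254 to 1527 (median 1356) at 12 months, against 1079 to 1286 (median 1181) at 5 months, and the DG 1111 to 1676 (median 1394) at 12 months, against 1067 to 1506 (median 1268) at 5 months. CA3 had the most separation, with 14 of 16 older rats above the whole 5-month range, against 6 in CA1 and 6 in the DG. The change was 0.27 ± 0.08 (adjusted p = 0.0123) for CA1, 0.21 ± 0.04 (adjusted p = 0.00037) for CA3 and 0.19 ± 0.06 (adjusted p = 0.016) for the DG.

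Atg10 was the member with the lowest level, 78.00 to 122 (median 97.3) at 12 months, against 47.7 to 95.98 (median 79.8) at 5 months in CA3. Its change was 0.40 ± 0.13 (adjusted p = 0.0277) for CA1, 0.37 ± 0.09 (adjusted p = 0.00628) for CA3 and 0.31 ± 0.13 (adjusted p = 0.0542) for the DG. The DG value missed the threshold, and the CA1 call was lost without 5-month replicate 1 or 8 (adjusted p 0.0511 to 0.0615). Atg7 had 309 to 405 (median 349) at 12 months, against 342 to 459 (median 414) at 5 months in CA1, where all 16 older rats lay below the 5-month median, and 344 to 547 (median 455) at 12 months, against 416 to 672 (median 537) at 5 months in the DG. The change of Atg7 was -0.18 ± 0.05 (adjusted p = 0.015) in CA1, -0.23 ± 0.07 (adjusted p = 0.0168) in the DG and -0.08 in CA3 (adjusted p = 0.242). Atg3, the E2-like enzyme of the LC3 branch whose promoter holds the E-box, was higher in the DG (0.15 ± 0.06, adjusted p = 0.0481) and called in neither other subregion. That call was lost in 16 of 28 fits, without 12-month replicate 1, 2, 4, 5, 6, 7, 9, 13 or 15 or 5-month replicate 4, 7, 8, 9, 10, 11 or 12 (adjusted p 0.0525 to 0.103). Atg16l1, which places the Atg12 to Atg5 conjugate on the membrane, was higher on the average only (0.08 ± 0.03, adjusted p = 0.0118), and Atg5 was called nowhere (average -0.07, 95% interval -0.15 to 0.01).

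The Atg4 proteases, which trim LC3 and GABARAP before conjugation and release them afterwards, moved in opposite directions. Atg4c was higher in all 3 subregions, Atg4b was lower in CA1 and Atg4d was lower in the DG. Atg4c had 199 to 357 normalized counts (median 268) at 12 months, against 161 to 268 (median 218) at 5 months in CA1. CA3 gave 362 to 529.5 (median 398) at 12 months, against 282 to 409 (median 365) at 5 months, and the DG 421 to 610.3 (median 512) at 12 months, against 355 to 537 (median 405) at 5 months. In the DG all 16 older rats lay above the 5-month median, as did 14 in CA1 and 15 in CA3. The change was 0.30 ± 0.09 (adjusted p = 0.0156) for CA1, 0.23 ± 0.06 (adjusted p = 0.0085) for CA3 and 0.23 ± 0.07 (adjusted p = 0.0145) for the DG. Atg4b, the most active of the family on LC3 in human and mouse cells, had 449 to 647 (median 531) at 12 months, against 551 to 716 (median 643) at 5 months in CA1. There 12 of 16 older rats were below the whole 5-month range, and the change was -0.25 ± 0.05 (adjusted p = 0.00197). In CA3 it was -0.08 and in the DG -0.05 (adjusted p = 0.134 and 0.498). Atg4d had 433 to 724 (median 549.8) at 12 months, against 542 to 749 (median 699) at 5 months in the DG, a change of -0.29 ± 0.06 (adjusted p = 0.00105).

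The LC3 and GABARAP genes, whose products coat the autophagosome, did not move together. In CA1, Gabarap and Gabarapl2 were higher and Map1lc3a lower, in CA3 limma called 0 of the 5 (2 at an unadjusted p under 0.05; 0 by edgeR and 0 by DESeq2), and in the DG Map1lc3a was lower. Map1lc3a had 2102 to 3252 normalized counts (median 2598) at 12 months, against 2368 to 3371 (median 3169) at 5 months in CA1 and 1711 to 3519 (median 2234) at 12 months, against 2285 to 4952 (median 2670.4) at 5 months in the DG. In the DG 10 of 16 older rats lay below the whole 5-month range. The change was -0.22 ± 0.07 (adjusted p = 0.0154) in CA1 and -0.32 ± 0.11 (adjusted p = 0.0197) in the DG, with -0.12 in CA3 (adjusted p = 0.157). Gabarap had 1737 to 2408 (median 2101) at 12 months, against 1599 to 2170.2 (median 1821) at 5 months in CA1, a change of 0.18 ± 0.06 (adjusted p = 0.0221). Its values in CA3 and the DG were 0.0022 and -0.13, of another sign in the DG but not past the threshold. Gabarapl2 had 1627 to 2602 (median 1963) at 12 months, against 1209.8 to 2202 (median 1742) at 5 months in CA1, a change of 0.25 ± 0.08 (adjusted p = 0.0187). Map1lc3b, the form most used as a marker of autophagosomes, changed by 0.14, -0.04 and -0.11 in CA1, CA3 and the DG, with a lowest adjusted p of 0.08. Gabarapl1 was lower on the average only (-0.12 ± 0.04, adjusted p = 0.00738). How reads that match more than 1 gene, such as close relatives within a subfamily or processed copies, were counted is not given in the sources used here and was not measured.

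Of the cargo receptors, Sqstm1, which encodes p62 and links ubiquitinated proteins to LC3, was lower in CA3 (-0.13 ± 0.03, adjusted p = 0.00892) and the DG (-0.17 ± 0.05, adjusted p = 0.0151). It had 7526 to 9231 (median 8025) at 12 months, against 8261 to 9877 (median 8981) at 5 months in CA3, where 9 of 16 older rats lay below the whole 5-month range. Optn, optineurin, a receptor for damaged mitochondria and bacteria, was higher in the DG and called in neither other subregion. It had 1201 to 1730.4 (median 1528) at 12 months, against 901 to 1677 (median 1088) at 5 months in the DG, and all 16 older rats lay above the 5-month median. The change was 0.36 ± 0.08 (adjusted p = 0.00211) in the DG, with 0.05 in CA1 and 0.04 in CA3. In the DG it was 0.08 in the first run against 0.64 in the second. Nbr1, a p62 partner, was called nowhere, though all 16 older rats lay above the 5-month median in the DG (0.08 ± 0.04, adjusted p = 0.069).

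Genes that define the 2 mTOR complexes moved in opposite directions. Rptor, whose product Raptor defines mTORC1, was lower in all 3 subregions, and Rictor, whose product defines mTORC2, was higher in CA3 and the DG. Mtor, the kinase of both, was lower in CA1 and CA3. Rptor had 1282 to 1809.8 normalized counts (median 1482) at 12 months, against 1339 to 1967 (median 1810.5) at 5 months in CA1. CA3 gave 1372 to 1859.5 (median 1589.5) at 12 months, against 1585 to 1998 (median 1804) at 5 months, and the DG 1394 to 2219 (median 1792) at 12 months, against 1807 to 2248 (median 1964) at 5 months. In CA1 all 16 older rats lay below the 5-month median, and 15 did so in each of CA3 and the DG. The change was -0.22 ± 0.06 (adjusted p = 0.00872) for CA1, -0.16 ± 0.04 (adjusted p = 0.00651) for CA3 and -0.18 ± 0.06 (adjusted p = 0.0171) for the DG. Mtor had 1985 to 2934 (median 2225) at 12 months, against 2081 to 3171 (median 2807) at 5 months in CA1, and changed by -0.26 ± 0.06 (adjusted p = 0.00565) there and -0.16 ± 0.04 (adjusted p = 0.00786) in CA3. In the DG its change was -0.13 (adjusted p = 0.0935).

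Rictor ranged over 515 to 703 (median 585) at 12 months, against 466 to 616 (median 549.6) at 5 months for CA3, and over 309 to 618 (median 469.9) at 12 months, against 200.1 to 484 (median 385) at 5 months for the DG. In the DG the 12-month rats ran from below the 5-month median to well above its range, with 4 below the median and 7 above the range. The change was 0.15 ± 0.05 (adjusted p = 0.0306) in CA3 and 0.41 ± 0.13 (adjusted p = 0.0151) in the DG. CA1 gave 0.26 with an adjusted p of 0.11. The CA3 call was lost without 12-month replicate 12 or 5-month replicate 1, 2 or 12 (adjusted p 0.0505 to 0.0639). Deptor, which binds and inhibits mTOR, was higher in the DG (0.28 ± 0.08, adjusted p = 0.00696) and called in neither other subregion, with 223 to 353 (median 286) at 12 months, against 182 to 309 (median 234) at 5 months. There 15 of 16 older rats lay above the 5-month median. In CA1 its spread was wide, and the 95% interval of its change was -0.25 to 0.54.

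The TSC complex, which holds mTORC1 back by switching off the GTPase Rheb, split in the DG. Tsc1, the stabilizing subunit, was higher there (0.18 ± 0.06, adjusted p = 0.0134), and Tsc2, the subunit with GTPase-activating function, was lower (-0.20 ± 0.08, adjusted p = 0.0392). Tsc1 had 872 to 1135 (median 1006) at 12 months, against 652 to 1053 (median 901) at 5 months in the DG, with 15 of 16 older rats above the 5-month median. Tsc2 had 2511 to 4002 (median 3130.4) at 12 months, against 3062 to 5014 (median 3496) at 5 months, with 8 of 16 below the whole 5-month range and 5 above its median. The Tsc2 call was lost in 10 fits, without 12-month replicate 1, 2, 7, 11, 12, 14 or 15 or 5-month replicate 3, 4 or 6 (adjusted p 0.0502 to 0.082). Rheb was called nowhere, with changes of 0.13 for CA1, -0.02 for CA3 and -0.05 for the DG.

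Prkaa1, a catalytic subunit of AMPK, was higher at 12 months in all 3 subregions, and the other catalytic subunit, Prkaa2, was called in none. Prkaa1 had 261 to 514 normalized counts (median 380.2) at 12 months, against 236 to 376 (median 316) at 5 months in CA1. CA3 gave 417 to 719 (median 518) at 12 months, against 388 to 528 (median 438) at 5 months, and the DG 257 to 543 (median 420.4) at 12 months, against 262 to 411 (median 330.4) at 5 months. The DG held 10 of 16 older rats above the whole 5-month range and 1 below it. The change was 0.32 ± 0.09 (adjusted p = 0.0129) for CA1, 0.20 ± 0.07 (adjusted p = 0.0387) for CA3 and 0.32 ± 0.09 (adjusted p = 0.00821) for the DG. The CA3 call was lost in 13 fits, without 12-month replicate 7, 10, 11, 12, 13 or 14 or 5-month replicate 1, 2, 3, 7, 9, 10 or 12 (adjusted p 0.0512 to 0.0753). Prkaa2 changed by -0.15 for CA1, -0.05 for CA3 and 0.02 for the DG, and its average change was 0.15 in the first run against -0.33 in the second.

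Tfeb, the transcription factor that drives lysosomal and autophagy genes, had the largest called decrease of the members in CA1 and, over all rats, in the DG. It had 192 to 447 normalized counts (median 242) at 12 months, against 282 to 505 (median 337) at 5 months in CA1. CA3 gave 216 to 411 (median 290.2) at 12 months, against 252 to 381 (median 316) at 5 months, and the DG 143 to 266 (median 186) at 12 months, against 171 to 333 (median 259) at 5 months. In CA1 13 of 16 older rats lay below the whole 5-month range, while CA3 showed broad overlap. The change was -0.46 ± 0.11 (adjusted p = 0.00409) in CA1, -0.43 ± 0.10 (adjusted p = 0.00153) in the DG and -0.07 ± 0.09 (adjusted p = 0.592) in CA3. Of the 18 members called in CA1, it alone was still called with the mitochondrial share as a covariate, at -0.56 (adjusted p = 0.0189). Rictor, also called in that fit, was not called in CA1 without the covariate. In the DG the change was -0.17 in the first run against -0.73 in the second. In the first run limma did not call it there (adjusted p = 0.41), and the decreases of Map1lc3a (-0.44) and Atg2a (-0.35) were larger. The difference between the runs had an adjusted p of 0.0493. The difference between the DG and CA3 in its change was -0.36 (adjusted p = 0.122).

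Whether age acted differently on the members in different subregions was tested within rats. For the DG minus CA1, limma called 0 members, with 9 at an unadjusted p under 0.05, where 0.607% of all genes were called (0.397% with the higher change in the DG, 0.209% with the lower). For the DG minus CA3 it called 0 members, with 7 at an unadjusted p under 0.05, where 2.73% of all genes were called (1.35% with the higher change in the DG, 1.38% with the lower). For CA1 minus CA3 it called 0 members, with 5 at an unadjusted p under 0.05, where 0% of all genes were called. A call in 1 subregion and not in another is therefore not shown to be a difference between them. The nearest was Optn, whose change was higher in the DG than in CA3 by 0.31 (95% interval 0.13 to 0.49, adjusted p = 0.0589) and than in CA1 by 0.31 (adjusted p = 0.0814). With a minimum value of 50 the same Optn difference from CA3 passed the threshold (adjusted p = 0.0479). In the second run alone it passed at 0.47 (adjusted p = 0.0375), as did Tfeb at -0.70 (adjusted p = 0.0388). Gabarap lay -0.31 (adjusted p = 0.0788) and Map1lc3b -0.25 (adjusted p = 0.0824) in the DG relative to CA1.

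Several partners or paralogues with unequal changes were followed as ratios within each library, which removes the size factor. These pairs were chosen with their values known and have no test. The log2 ratio of Ulk1 to Rb1cc1, with the 5-month median set to 0, had a 12-month median of -0.44 for CA1, -0.43 for CA3 and -0.67 for the DG. It was below the 5-month median in 14, 16 and 15 of 16 older rats. Atg2a to Atg2b gave -0.28, -0.28 and -0.35, below in 15, 16 and 15 rats. Atg4b to Atg4c gave -0.53, -0.23 and -0.29, below in 16, 16 and 13 rats. For Rptor to Rictor, the mTORC1 and mTORC2 partners, the medians were -0.33, -0.30 and -0.43, below in 14, 15 and 13 rats. All 4 ratios were lower at 12 months in both runs of animal numbers in each subregion, as was Ulk1 to Ulk2. Map1lc3a to Map1lc3b and Prkaa1 to Prkaa2 did not keep 1 sign. In the DG, Map1lc3a to Map1lc3b gave -0.24 in the first run against 0.11 in the second. Prkaa1 to Prkaa2 gave -0.07 against 0.56 there. Tsc1 to Tsc2 was higher at 12 months in both runs in each subregion, though by only 0.0044 in the second run in CA3. It lay furthest above its 5-month median in the DG, with 0.47 there against 0.12 in CA1 and 0.06 in CA3. A ratio shows that 2 transcripts changed unequally and not which of them changed.

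**Figure D3:**
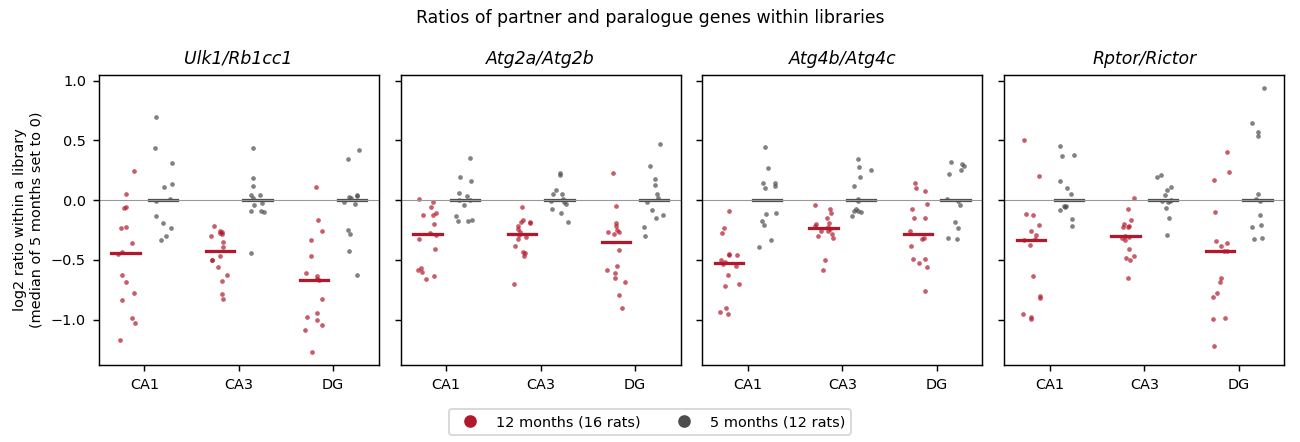
Log2 ratio of 2 members within a library for 4 pairs, with the median of the 5-month rats set to 0. Each dot is 1 library, 12 months (16 rats) at the left and 5 months (12 rats) at the right of each subregion, and a bar marks the median. The 12-month medians lie below 0 in all 12 panels and subregions, furthest for Ulk1 to Rb1cc1 in the DG at -0.67.

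Across subregions the members were expressed at much the same level. Since the 3 tables were normalized separately, levels are given as reads per M reads of the library (RPM), over all 28 rats, without a test. The median level was highest in the DG for 23 members, in CA3 for 12 and in CA1 for 7. For 3 members, Deptor, Prkaa2 and Atg4c, the highest median was more than 1.5 times the lowest. Optn alone had a range in 1 subregion that cleared both others. It had a median of 116 RPM in CA3 (106 to 141), 83.05 in CA1 (58.2 to 102) and 78.8 in the DG (51.5 to 101). Deptor had the widest span between subregions, with 15.03 RPM in the DG (10.6 to 20.6), 10.02 in CA3 (6.44 to 15.3) and 5.69 in CA1 (2.07 to 10.1). The DG and CA1 ranges of Deptor did not overlap, while neighbours in the order did. Prkaa2 was lowest in CA1, at 7.05 RPM, with 13.5 in CA3 and 10.01 in the DG, and its ranges overlapped. Atg4c was highest in the DG, at 27.7 RPM, with 20.4 in CA3 and 14.6 in CA1. With the normalized counts as deposited, 35 members kept the same highest subregion. The share of all genes with their highest median in each subregion, or with ranges apart, is not given here. These counts are therefore not shown to be particular to the members.

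**Figure D4:**
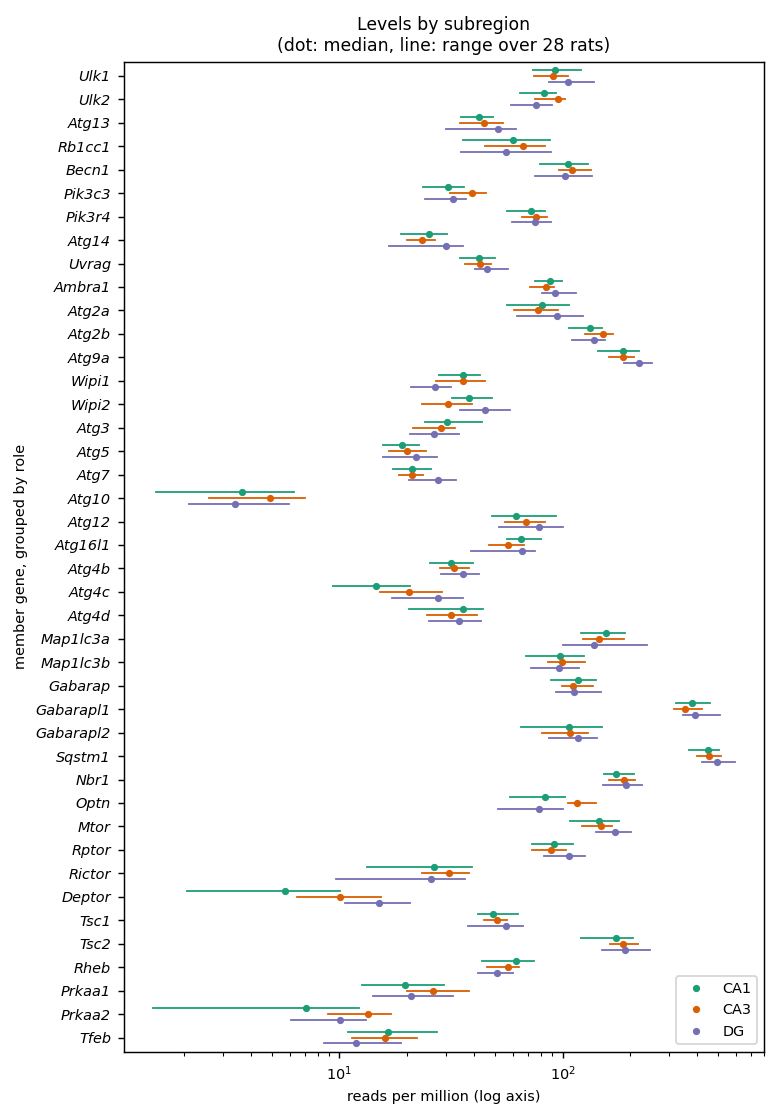
Level, in reads per M reads of the library (RPM), of the 42 members in CA1, CA3 and the DG, on a log axis. The dot is the median and the line the range over 28 rats of both ages. Optn in CA3, at a median of 116, is clear of its other subregions, and Deptor is 15.03 in the DG and 5.69 in CA1.

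On the average of subregions the age effect could be set side by side in the 2 runs, which share no rats. In the first run 15 members were called (18.4% of all genes) and in the second 31 (58.1%), with 14 in both. The share of all genes called in both runs was not counted, so this overlap is not shown to be particular to the members. Those 14 were Ulk1, Rb1cc1, Ambra1, Atg2a, Atg9a, Wipi2, Atg7, Atg10, Atg12, Atg4c, Map1lc3a, Gabarapl1, Rictor and Tsc2. The sign was the same in both runs for 31 of the 42 members (73.8%), where it was for 74.5% of all genes. Of the 27 members called over all rats, which that call largely sorts by sign, Becn1 and Optn had a different sign in the first run. Rb1cc1 changed by 0.25 in the first run against 0.44 in the second. Atg2a changed by -0.27 in the first run against -0.48 in the second. Atg4c changed by 0.25 in the first run against 0.27 in the second. Within a run the ages hold separate blocks of animal numbers, so age and block cannot be told apart.

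**Figure D5:**
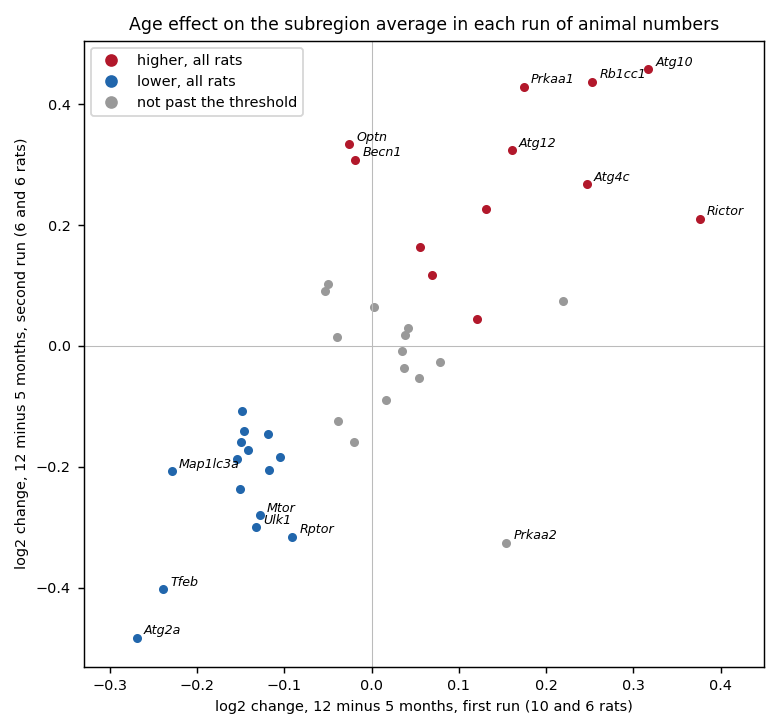
Log2 change with age on the average of 3 subregions, in the first run of animal numbers (horizontal, 10 rats of 12 months and 6 of 5 months) against the second (vertical, 6 of each). Each dot is a member, red if higher and blue if lower over all rats, grey if not past the threshold. Of all 42 dots, 31 have the same sign on both axes, and among the coloured ones Becn1 and Optn do not.

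Around these members, 103 other genes of the same pathways were listed and 91 were tested. CA1 had 14 of them higher and 17 lower at 12 months, CA3 had 13 higher and 18 lower, and the DG had 17 of each. That is 34.1% of the 91 for CA1 and 34.1% for CA3, above the 25.2% and 21.7% over all genes, and 37.4% for the DG, near the 37.1% over all genes. On the average 27 were higher and 29 lower (61.5%), where 50% of all genes were called (25.4% higher and 24.6% lower), and each list count on the average is to be read against that share. In the first run alone limma gave 5 higher and 1 lower for CA1, 2 and 3 for CA3, and 0 and 0 for the DG (18 at an unadjusted p under 0.05). Upstream of mTORC1, Akt1, the kinase that inhibits the TSC complex, was lower in all 3 subregions, with changes of -0.29, -0.25 and -0.37 in CA1, CA3 and the DG. The insulin receptor substrates Irs1 (-0.27 ± 0.06, adjusted p = 0.0009) and Irs2 (-0.21 ± 0.05, adjusted p = 0.000511) and the kinase Akt2 (-0.17 ± 0.04, adjusted p = 0.00161) were lower on the average. Of 10 tested genes of growth factor input and TSC, 2 were higher and 4 lower on the average (60%, against 50% of all genes). Castor2, a paralogue of the arginine sensor of mTORC1, was lower in all 3 subregions (-0.37 ± 0.07, adjusted p = 8.15e-05 on the average). Lamtor5 (0.18 ± 0.03, adjusted p = 5.14e-05) and Rragc (0.19 ± 0.04, adjusted p = 0.000117), of the lysosomal platform that recruits mTORC1, were higher on the average. Among 21 tested amino acid sensing genes, 6 were higher and 6 lower on the average (57.1%, near the 50% of all genes).

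Downstream, Eif4ebp2, the translation repressor that mTORC1 inactivates, was lower in all 3 subregions (-0.24 ± 0.04, adjusted p = 5.28e-05 on the average), and Eif4ebp3 (0.18 ± 0.03, adjusted p = 8.85e-05) and Rps6kb1, an mTORC1 substrate kinase (0.19 ± 0.04, adjusted p = 0.000747), were higher on the average. Of 12 tested genes listed with mTORC1 outputs, Foxo1 and Foxo3 among them, 6 were higher and 3 lower on the average (75%, against 50% of all genes). Akt1s1, which encodes the mTORC1 inhibitor PRAS40, was lower on the average (-0.20 ± 0.04, adjusted p = 0.000163). Of 8 other genes listed with the mTOR complexes, not all of them subunits, 0 were higher and 3 lower (37.5%, below the share of all genes). Cab39l, a scaffold of the LKB1 kinase that activates AMPK, was higher in all 3 subregions (0.46 ± 0.07, adjusted p = 1.9e-05 on the average), and Stk11, which encodes LKB1 itself, was lower on the average (-0.15 ± 0.04, adjusted p = 0.00119). Of 11 tested AMPK and upstream genes, 3 were higher and 3 lower on the average (54.5%, near the share of all genes).

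Among other autophagy genes, Tecpr1, which binds the Atg12 to Atg5 conjugate at the lysosome, was lower in all 3 subregions (-0.32 ± 0.05, adjusted p = 1.28e-05 on the average) and Snap29, a SNARE of autophagosome fusion, was higher on the average (0.17 ± 0.04, adjusted p = 0.000538). Atg101, a subunit of the ULK1 complex, was lower on the average (-0.16 ± 0.04, adjusted p = 0.00073). Of 17 tested genes of this machinery, 5 were higher and 3 lower on the average (47.1%, near the 50% of all genes). Of 12 tested genes listed with cargo and mitophagy receptors, 5 were higher and 7 lower on the average, all 12 of them called. Not all 12 are receptors, since the list also holds Pink1 and Wdfy3. Fundc1, a mitophagy receptor of the outer mitochondrial membrane, was higher in all 3 subregions (0.47 ± 0.07, adjusted p = 1.3e-05 on the average).

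Calcoco1, a receptor for selective autophagy of the endoplasmic reticulum, was lower by a larger log2 change than any member in each subregion. It had 15.9 to 318 normalized counts (median 55.1) at 12 months, against 29.3 to 973 (median 583) at 5 months in CA1. CA3 gave 8.52 to 322 (median 55.7) at 12 months, against 46.7 to 683 (median 372) at 5 months, and the DG 28.4 to 953 (median 265) at 12 months, against 246 to 797 (median 452) at 5 months. Single libraries of either age ran over a wide span, and the ages overlapped in all 3 subregions. The change was -2.41 ± 0.46 (adjusted p = 0.000997) for CA1, -2.004 ± 0.47 (adjusted p = 0.0036) for CA3 and -1.02 ± 0.40 (adjusted p = 0.0466) for the DG. The DG call was lost in 17 of 28 fits, without 12-month replicate 1, 5, 7, 11, 12, 13, 14, 15 or 16 or 5-month replicate 1, 3, 4, 6, 7, 8, 9 or 10 (adjusted p 0.0501 to 0.0797).

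Some cell type markers also differed with age. Their counts are to be read against the 25.2% of all genes called for CA1, 21.7% for CA3 and 37.1% for the DG. Of 6 microglial markers, 5 were higher in CA3 at 12 months, with 2 in CA1 and 1 in the DG. Their summed normalized counts ran from 5278 to 27053 (median 6091) at 12 months, against 4966 to 6258 (median 5708) at 5 months in CA1. In CA3 they ran from 5029 to 19551 (median 5723) at 12 months, against 4183 to 5580 (median 5082) at 5 months. Of 3 markers of oligodendrocyte precursors, 2 were lower in each subregion, with a DG median sum of 1695 at 12 months and 2026 at 5 months. Of 5 neuronal markers, 1 was higher and 2 lower in CA1 and likewise in CA3, and 3 were higher and 2 lower in the DG. Both CA1 pyramidal markers were lower in CA1, Wfs1 by a log2 change of -0.26 and Fibcd1 by -0.34, and their summed counts ran from 22809 to 43423 (median 31472) at 12 months, against 24880.5 to 47570.0 (median 37901) at 5 months. In the DG Fibcd1 was lower too (-0.57), and 1 of 2 granule cell markers and 1 of 2 CA3 pyramidal markers were lower, and neither CA3 pyramidal marker was called in CA3. Of 3 mural markers, 2 were lower in the DG and 1 in each of CA1 and CA3. Of 2 tested endothelial markers, 1 was lower in the DG. Of 6 astrocyte markers, 1 was lower in each subregion and 1 was higher in CA3 and in the DG. Of 6 oligodendrocyte markers, 1 was lower in CA1 and 1 higher in the DG. No library had a sum of 0 for any list. The part of these cell types in the changes of the members was not tested.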

How the data were processed

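PolyA RNA from CA1, CA3 and the DG of 28 rats was cut by RNase III and sequenced as Ion Total RNA-seq libraries, per the labels' protocols. Build rn6 and the tools Partek, STAR 2.5.3a and DESeq2 3.5 appear in the submitters' processing notes. Not given in the sources used here are the annotation, the gene filter, the strand and the handling of reads that match several genes. The deposited values are a signal, gene counts that the authors divided by 1 size factor per library, in a table per subregion. Whole reads were recovered by undoing it, since 100% of values up to 1000 reads fell within 0.1 of a multiple of 1 read, and gave 14.4 to 23.4 M reads per library.

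Each gene that reached a value of 10 in 12 or more of a table's 28 libraries entered a fit of log2(value + 1) in limma 3.58.1 in R 4.3.3 (empirical Bayes with a trend, 2-sided), and p was adjusted by Benjamini-Hochberg over 14685 genes of CA1, 14893 of CA3, 14526 of the DG and 14291 for the average. A change understates the fold of low genes. Replicates are separate rats. Differences between subregions used each rat's own difference. For CA3, 1 column headed by an animal number alone was taken as that animal's CA3 library. Promoters came from RefSeq (GRCr8). Alternatives were tests of the recovered reads by DESeq2 1.42.0 and edgeR 4.0.16, other pseudocounts, filters and scalings, a term for the run, each run alone, each rat left out and, chosen after the data were seen, the mitochondrial share as a covariate and leaving out, in each subregion, the 3 libraries that lie farthest from their age group. The limma fits were also run on simulated data with few changed genes and no effect of the run. The outcome is not given here and is no evidence for the calls. The members, the lists and the pairs followed as ratios were chosen with earlier results of these data known. Other pathway genes named are up to 4 per list with the smallest p on the average. Listed genes that the tables do not name or that missed the filter were not analysed here.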

Additional observations from a re-analysis of the deposited data

Results flagged for a closer look

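The change with age differed between the 2 runs of animal numbers, by an interaction of age and run in limma, for 6 genes. Each value is the log2 change of the second run minus that of the first, adjusted over all genes. For Becn1 it was 0.41 in CA1 (adjusted p = 0.0385), 0.47 in the DG (adjusted p = 0.00915) and 0.33 on the average of subregions (adjusted p = 0.00361). For Optn it was 0.55 in the DG (adjusted p = 0.00656) and 0.36 on the average (adjusted p = 0.00109). For Ulk1 it was -0.30 in the DG (adjusted p = 0.0405), with -0.06 in the first run against -0.37 in the second. For Tfeb it was -0.56 in the DG (adjusted p = 0.0493), with -0.17 in the first run against -0.73 in the second. On the average it was -0.22 for Rptor (adjusted p = 0.0264), with -0.09 in the first run against -0.32 in the second, and -0.48 for Prkaa2 (adjusted p = 0.0444). Ulk1, Tfeb and Rptor were lower at 12 months in both runs. Among all genes the interaction was called for 3.24% in CA1, 6.15% in the DG and 14.5% on the average. For CA3 limma called it for 0 members (2 at an unadjusted p under 0.05) and 0.577% of all genes.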

How the results depend on the processing

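Over all rats 81 member results were called, counting each subregion and the average. With pseudocounts of 0.5 or 5, a minimum of 50, TMM or median of ratios rescaling, or a term for the run, all 81 kept their direction and their call. Without a filter 80 did, after quantile normalization 69, and without the 3 farthest libraries of each subregion 72. DESeq2 kept 54 of 54 and edgeR 52 of 54, and neither was run for the average. The first run alone kept 18, the second run alone 64, and the mitochondrial share as a covariate 53. On the average, Becn1 (-0.019) and Optn (-0.026) turned to the other sign in the first run alone. The cause was not tested.

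In the first run alone limma gave 0 members higher and 0 lower for CA1, 2 and 1 for CA3, 0 and 0 for the DG, and 6 and 9 for the average, with 10, 14, 11 and 21 at an unadjusted p under 0.05. That run holds 16 of the 28 rats. The second run alone gave 3 higher and 4 lower for CA3 (8.43% and 8.1% of all genes). With the mitochondrial share as a covariate 1 was higher and 1 lower for CA1 (2.34% and 2.61% of all genes). On the average in that fit 7 were higher (15.5% of all genes). Without the 3 farthest libraries 5 were higher for CA3 (8.13% of all genes). Leaving out each rat in turn gave 5 to 8 higher and 10 to 14 lower for CA1, 4 to 8 and 6 to 9 for CA3, 9 to 12 and 10 to 13 for the DG, and 12 to 12 and 15 to 16 for the average. For CA3 the higher count was 5 without 5-month replicate 1 or 12 or 12-month replicate 12, and 4 without 5-month replicate 2.

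For the DG minus CA3, 1 member was called with a minimum of 50, 2 in the second run alone and 1 with the rat as a random block. The share of all genes called in those fits is not given here, and in the main fit it was 2.73%. So these calls are not shown to be particular to the members. No paired analysis was possible between ages because each rat has 1 age. Between subregions each rat is its own pair. Without that block, 0 members were called for each of the 3 differences, and same-rat correlations were 0.127, 0.122 and 0.0928.

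For other pathway genes the first run alone gave 5 higher and 1 lower for CA1, 2 and 3 for CA3, and 0 and 0 for the DG, where 18 had an unadjusted p under 0.05. The second run alone gave 10 lower for CA3 (8.1% of all genes). With the mitochondrial share the counts were 5 and 1 for CA1 (2.34% and 2.61% of all genes). For CA3 they were 5 and 11 (6.43% and 7.32% of all genes). Without the 3 farthest libraries 5 were higher for CA3 (8.13% of all genes) and 28 lower for the DG (21%). With the normalized counts as deposited, in place of reads per total, 4 members were highest in CA1. Promoter base composition was not used as a correction, since 70.7% of tested genes have a promoter in the table.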
